A study of Mus musculus with 4 samples.

Results

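Trimethylation of lysine 4 of histone H3 (H3K4me3) marks the nucleosomes around active and poised promoters. Wbp7, also known as Kmt2b or MLL2, is a histone methyltransferase of the trithorax family that deposits it (the labels write MLL2 in some fields and MLL4 in others). The family has several members that act at overlapping sets of promoters, so the loss of a single member can spare the mark at many of its sites. The question examined was where macrophages exposed to lipopolysaccharide (LPS) still carried H3K4me3 without Wbp7. LPS is a bacterial cell wall component sensed through Toll-like receptor 4 and its co-receptor CD14, a protein held at the membrane by a glycosylphosphatidylinositol (GPI) anchor. The title of the study links Wbp7 to GPI anchor synthesis.

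The comparison set 15086 H3K4me3 peaks of LPS-treated Wbp7-/- macrophages against 17313 peaks of LPS-treated Wbp7+/- macrophages. These are 32399 of the 64314 peaks in the series, whose other 2 lists come from untreated cells of the same genotypes. All cells were macrophages differentiated from bone marrow for 7 days, from mice whose background was 94% C57BL/6 and 6% 129/Ola, and both groups compared received 10 ug/ml LPS, for 4 h by their labels. The Wbp7+/- cells kept 1 functional copy of Wbp7 and served as the control, since there was no group with both copies. The labels do not say how the Wbp7 alleles were made, whether a library pooled several mice, or whether the treated and untreated cells of a genotype shared mice. A peak was counted as matched where it overlapped a peak of the other list by at least 1 bp. No values other than the peak positions chose the members. Where a region met several peaks of another list, the width given for that list is their sum and the score is the highest.

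Each group held 1 library, so the differences below rest on single libraries and no test was made. The track line of the LPS-treated Wbp7+/- file names 24 h of LPS against 4 h in its label, so the treatment time of that library is uncertain. The 2 overall counts, the counts by score class and among ceiling peaks, the median width ratio and the counts of large width changes were therefore also computed with the untreated Wbp7+/- list in its place. Peaks were called in each library separately and their read numbers are unknown. Where a list has no peak, H3K4me3 may still be present below the calling threshold of that library, and how much the depth of each library moved the calls was not tested. Intervals are 95% Wilson intervals, which cover counting error over peaks only. The lists carry no measure of Wbp7 itself, so the genotype labels could not be checked, and no gene is named for a region because no mm9 gene annotation was used.

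Loss of Wbp7 went with the absence of many narrow, low-scoring H3K4me3 peaks and of few strong ones. Of the 17313 Wbp7+/- peaks, 3412 (19.7%, 19.1 to 20.3) had no Wbp7-/- peak, and in the reverse direction 1207 of 15086 Wbp7-/- peaks (8.00%, 7.58 to 8.44) had no Wbp7+/- peak. The Wbp7+/- peaks without a counterpart had a median width of 777 bp (quartiles 560 and 1077), against 2018 bp for the matched ones. The Wbp7-/- peaks without a counterpart had a median of 859 bp, against 2137 bp. With the untreated Wbp7+/- list in place of the LPS list, the counts were 3242 of 17316 and 1263 of 15086. With the longer list cut to the 15086 highest-scoring peaks, the counts were 1999 and 1816. Most matched peaks met a single peak, so lists of equal length must give similar counts, and no conclusion is drawn from this closeness. By the same rule, the excess of 3412 over 1207 largely follows the difference in list length.

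Peak width and peak score both graded the loss. The score in each list is the authors' MACS score, which rises with enrichment and with depth, and 9480 Wbp7+/- and 8950 Wbp7-/- peaks stood at the top value of 3100 or just above it, here called the ceiling. Under a score of 100, 1341 of 2095 Wbp7+/- peaks (64.0%) lacked a counterpart, and the share was 45.3% for scores of 100 to under 500 and 22.2% for scores of 500 to under 3100. At the ceiling it was 0.865% (0.697 to 1.07). The shares for Wbp7-/- peaks were lower in each class, at 39.0%, 19.7%, 3.47% and 0.0112%. With the untreated Wbp7+/- list in place of the LPS list, 66 Wbp7+/- ceiling peaks (0.681%) lacked a counterpart, and 9 Wbp7-/- ceiling peaks (0.101%) in place of 1. By width, 70.4% of the 874 Wbp7+/- peaks under 500 bp had no counterpart, 52.2% of those from 500 bp to under 1 kb and 16.3% of those from 1 to under 2 kb. Wide domains were always met by some peak: 0 of the 657 Wbp7+/- peaks of 5 kb or more lacked an overlapping Wbp7-/- peak, which allows a share of up to 0.457% (3 counts of the total), and 0 of the 658 such Wbp7-/- peaks lacked a Wbp7+/- peak. The Wbp7-/- peaks covered a median of 96.7% of the bases of each wide Wbp7+/- domain, but under 80% of 68 domains and under 50% of 4. The reverse direction was close to this. Wbp7+/- peaks covered a median of 97.1% of each wide Wbp7-/- domain, under 80% of 50 domains and under 50% of 2. Width also graded the loss within a score class: for Wbp7+/- scores of 500 to under 3100, the share was 24.3% at widths of 1 to under 2 kb and 8.39% at 2 to under 3 kb. The Wbp7-/- peaks of that class did not show this grade, at 2.93% and 5.16%.

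**Figure D1:**
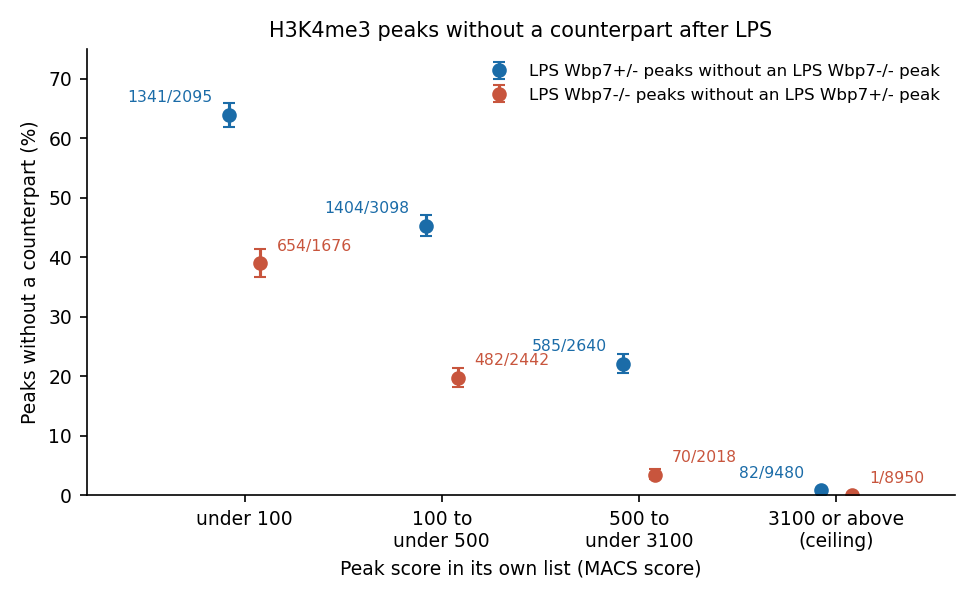
Share of H3K4me3 peaks without a counterpart in the other genotype after LPS (y axis, %), by the MACS score of the peak in its own list (x axis), for Wbp7+/- peaks (blue) and Wbp7-/- peaks (red). Bars are 95% Wilson intervals and the labels give peaks without a counterpart over all peaks of the class; 82 of 9480 Wbp7+/- ceiling peaks and 1 of 8950 Wbp7-/- ceiling peaks had none.

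The untreated libraries, which the matching did not use, showed the same genotype difference at most of the stronger sites. Of the 82 ceiling peaks without a Wbp7-/- LPS peak, 77 had a peak in untreated Wbp7+/- cells and none in untreated Wbp7-/- cells, a share of 93.9% (86.5 to 97.4). That pattern was seen at 52 of the 9398 matched ceiling peaks (0.553%). It was found at 517 of the 585 peaks without a counterpart that scored from 500 to under 3100 (88.4%, against 6.62% of matched peaks of that class). For scores of 100 to under 500 the shares were 70.8% and 12.8% of matched peaks, and under 100 they were 39.4% and 12.7%. The low-scoring losses were thus the least often seen in the untreated pair, and 688 of the 1341 under 100 had a peak in neither untreated list. Over all 3412, the untreated pair had a peak in Wbp7+/- alone at 2116 (62.0%), in both genotypes at 291 and in Wbp7-/- alone at 28.

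The 82 strong peaks without a Wbp7-/- counterpart lay on 19 of 20 chromosomes and measured from 1053 to 3777 bp, with a median of 1896 bp. Their nearest Wbp7-/- peak was a median of 67.9 kb away, and 28 lay over 100 kb from one, whereas 6 lay within 5 kb. The widest, on chromosome 19 from 12084362 to 12088138, measured 3777 bp after LPS and 3839 bp untreated in Wbp7+/- cells, and neither Wbp7-/- list had a peak there. The second was the most isolated of the 20 named regions. It lay on chromosome 4 from 28739474 to 28743069, with 3596 bp after LPS and 3329 bp untreated, and the nearest peak of LPS-treated Wbp7-/- cells was 2465 kb away. On chromosome 8, the peak from 83401813 to 83404987 measured 3175 bp after LPS against 2920 bp untreated, and that from 81551704 to 81554616 measured 2913 bp against 2961 bp. The chromosome 8 regions were picked as examples after their values were seen. At all 4 places the widths were close with and without LPS in Wbp7+/- cells, so the mark was there in untreated cells too.

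At other strong sites of the same class the Wbp7+/- peak was much wider after LPS, or was called after LPS alone. On chromosome 5, the peak from 141716793 to 141720244 measured 3452 bp after LPS and 653 bp untreated, where it scored 356.89. The peak on chromosome 3 from 121128705 to 121131518 measured 2814 bp against 1374 bp, and that on chromosome 11 from 120581847 to 120584388 measured 2542 bp against 1414 bp. On chromosome 1, the peak from 173696956 to 173699585, of 2630 bp, had no untreated peak in either genotype and was the only ceiling peak of the 82 absent from untreated Wbp7+/- cells. The LPS Wbp7-/- list was empty at these sites by the rule that chose them. The untreated Wbp7-/- list had no peak at any of them either, as at 78 of the 82.

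A few of the 82 kept a remnant in untreated Wbp7-/- cells. There were 4, with scores from 63.99 to 130.37 against 3100 in untreated Wbp7+/- cells. On chromosome 4 from 57312398 to 57315039, the Wbp7+/- peak measured 2642 bp after LPS and 2616 bp untreated, and the untreated Wbp7-/- peak 706 bp. The others were on chromosome 11 from 105450465 to 105452539, with 915 bp in untreated Wbp7-/- cells, on chromosome 16 from 96348344 to 96350407, with 584 bp, and on chromosome 3 from 98231038 to 98232758, with 966 bp. Of the 20 widest of the 82, 19 had a peak in untreated Wbp7+/- cells, 15 of them at the ceiling, and 1 had a peak in untreated Wbp7-/- cells.

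**Figure D2:**
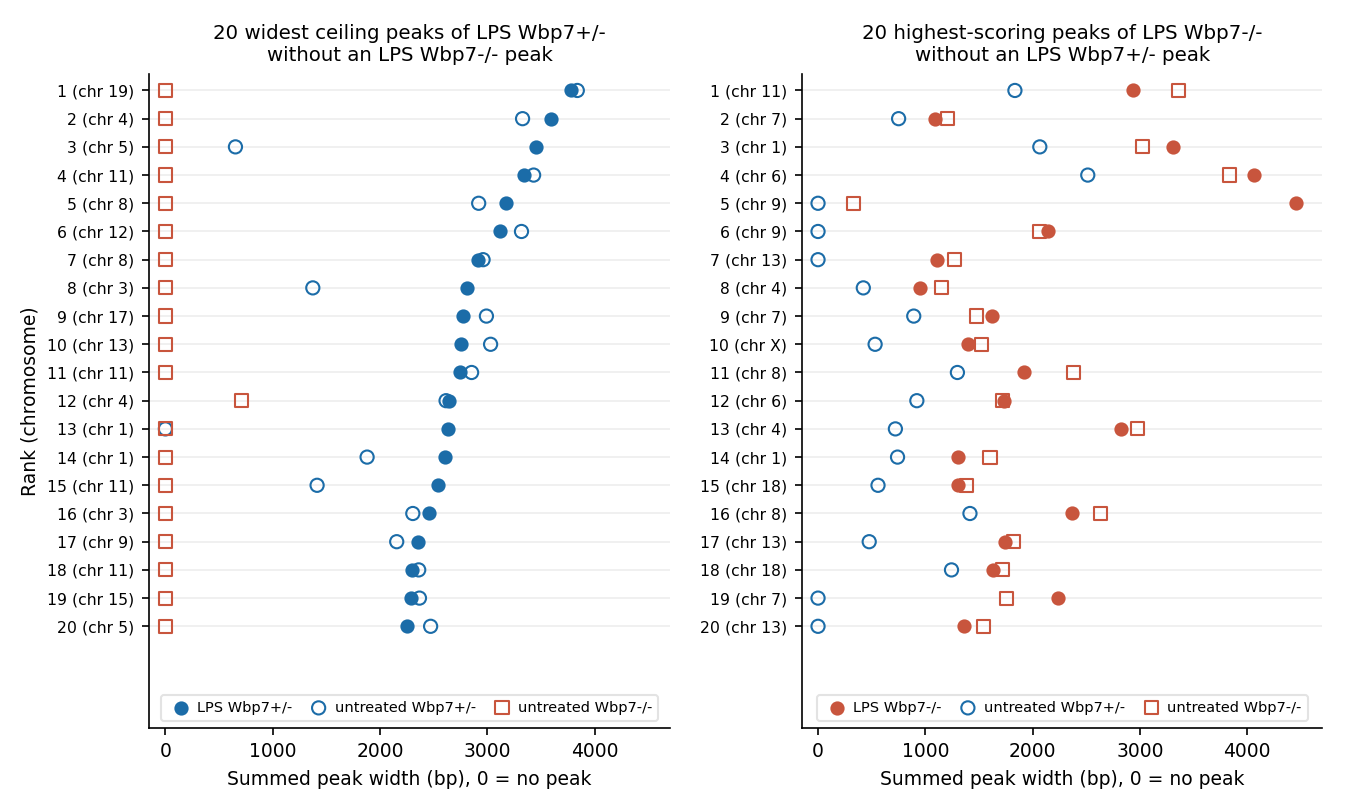
Peak width in bp (x axis, 0 where a list has no peak) at the 20 widest ceiling peaks of LPS-treated Wbp7+/- cells without an LPS Wbp7-/- peak (left) and the 20 highest-scoring peaks of LPS-treated Wbp7-/- cells without an LPS Wbp7+/- peak (right), 1 region per line by rank, with filled points for LPS and open points for the untreated lists. On the left 1 of 20 regions has an untreated Wbp7-/- peak; on the right 15 of 20 have an untreated Wbp7+/- peak, each narrower than the untreated Wbp7-/- peak.

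Strong sites also differed short of complete absence. Of the 9480 Wbp7+/- ceiling peaks, 8665 (91.4%) had a ceiling peak in Wbp7-/- cells, and in 558 (5.89%) the best overlapping score was at least 500 but below the ceiling. In 148 (1.56%) it was at least 100 but under 500, in 27 (0.285%) it was lower, and 82 had no peak. For the 8950 Wbp7-/- ceiling peaks the numbers in Wbp7+/- cells were 8676, 258, 13, 2 and 1. Ceiling peaks that scored under 500 or had no peak in the other genotype thus numbered 257 (2.71%, 2.40 to 3.06) in the first direction and 16 (0.179%, 0.110 to 0.290) in the other. With the untreated Wbp7+/- list in place of the LPS list they numbered 235 and 33. The untreated pair gave 226 of 9695 (2.33%) and 11 of 9047 (0.122%). Scores come from libraries of unknown depth, so a lower score in Wbp7-/- cells is not by itself less H3K4me3.

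**Figure D3:**
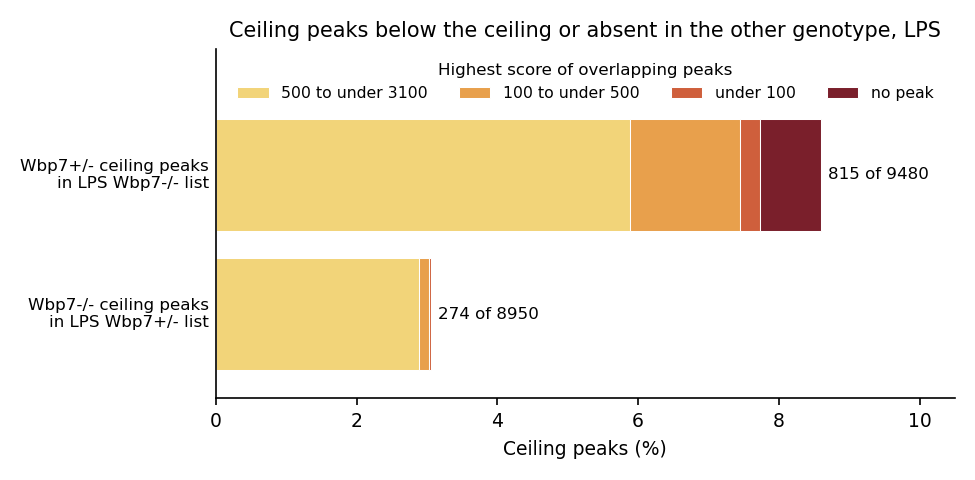
Ceiling peaks of each genotype after LPS that were below the ceiling or absent in the other genotype (x axis, % of ceiling peaks), coloured by the highest score among the overlapping peaks of the other list. The upper bar holds 815 of 9480 Wbp7+/- peaks and the lower bar 274 of 8950 Wbp7-/- peaks.

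The 175 Wbp7+/- ceiling peaks with a Wbp7-/- score under 500 were weak in untreated Wbp7-/- cells too. There, 0 of the 175 were at the ceiling, 26 scored from 500 to under 3100, 99 from 100 to under 500 and 25 under 100, and 25 had no peak. In untreated Wbp7+/- cells 141 of them were at the ceiling. This set was formed after its scores were seen. The Wbp7-/- width was the smaller at all 175, by 1.5-fold or more at 119, and the median ratio to the Wbp7+/- width was 0.585. Width went with score in the reverse direction too, so the smaller width is not separate from the score that chose the set. One-to-one pairs at the ceiling in Wbp7-/- cells alone had median ratios of 1.80 (8 pairs, Wbp7+/- scores of 100 to under 500) and 3.28 (2 pairs, under 100). In these classes 0% of pairs were narrower in Wbp7-/- cells. Of the 175, 150 had a peak in both Wbp7-/- lists. At 136 of these, the Wbp7-/- widths with and without LPS were within 1.5-fold of each other. The widest peak, on chromosome 2 from 117936028 to 117940963, measured 4936 bp in LPS-treated Wbp7+/- cells and 2291 bp in LPS-treated Wbp7-/- cells, with 4164 and 2361 bp untreated. The next, on chromosome 5 from 108151749 to 108156141, narrowed little, with 4393 bp against 4073 bp after LPS and 4007 bp against 3365 bp untreated, although its score was 400.95 in LPS-treated Wbp7-/- cells. Also on chromosome 5, the peak from 52503551 to 52507752 measured 4202 bp against 1894 bp after LPS, and 4355 bp against 1744 bp untreated. The peak on chromosome 17 from 17962994 to 17967149 followed, with 4156 bp (Wbp7+/-) against 1780 bp (Wbp7-/-) after LPS and, untreated, 2627 bp in Wbp7+/- cells and no Wbp7-/- peak. The fifth, on chromosome 19 from 45089381 to 45093532, again narrowed little, at 4152 bp against 3685 bp after LPS. Farther down, the peak on chromosome 14 from 51682361 to 51686025 measured 3665 bp against 949 bp after LPS and 3590 bp against 932 bp untreated, whereas that from 47501846 to 47505348 measured 3503 bp against 824 bp after LPS and 3163 bp against 1698 bp untreated.

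Peaks found in LPS-treated Wbp7-/- cells without a Wbp7+/- counterpart were mostly weak, and the stronger ones usually had a faint Wbp7+/- peak in the untreated list. Of the 1207, 654 scored under 100, 482 between that and 500, 70 higher but below the ceiling, and 1 was at the ceiling. Untreated Wbp7+/- cells had a peak at 448 of the 1207 (37.1%, 34.4 to 39.9), so matching against both Wbp7+/- lists left 759. For the 3412 peaks in the other direction, untreated Wbp7-/- cells had a peak at 319 (9.35%, 8.42 to 10.4). The untreated Wbp7+/- list was the longer, with 17316 peaks against 14599 for untreated Wbp7-/- cells. How far list length moved this contrast and the next was not tested. Among peaks scoring 500 or above, 48 of the 71 Wbp7-/- peaks without a counterpart (67.6%) had a peak in untreated Wbp7+/- cells, against 58 of the 667 such Wbp7+/- peaks (8.70%) that had one in untreated Wbp7-/- cells. At these 48 places the untreated Wbp7+/- peak scored under 100 at 15, from 100 to under 500 at 31 and higher at 2, and the untreated Wbp7-/- peak had the higher score at all 48.

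The single ceiling peak of this kind lay on chromosome 11 from 117685098 to 117688031 and measured 2934 bp. Untreated, it measured 3363 bp at the ceiling in Wbp7-/- cells and 1835 bp with a score of 305.23 in Wbp7+/- cells. Next came peaks on chromosome 7 from 145362078 to 145363163 (score 2513.09, 1086 bp), on chromosome 1 from 136697267 to 136700574 (2476.7, 3308 bp) and on chromosome 6 from 72111502 to 72115567 (2046.09, 4066 bp). In untreated cells these measured 1210, 3023 and 3838 bp in Wbp7-/- and 751, 2067 and 2514 bp in Wbp7+/- cells. The peak on chromosome 9 from 83004479 to 83008930 stood apart, since it measured 4452 bp in LPS-treated Wbp7-/- cells, 328 bp in untreated Wbp7-/- cells and was absent from both Wbp7+/- lists. The untreated Wbp7-/- list had a peak at all 20 highest-scoring regions of the class and the untreated Wbp7+/- list at 15, with scores from 52.88 to 860.89.

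Where both genotypes kept a strong peak, it was on the whole slightly wider without Wbp7. Each peak overlapped exactly 1 peak of the other list in 12353 pairs, and the median ratio of the Wbp7-/- to the Wbp7+/- width was 1.03 (1.03 to 1.04, order-statistic interval). In the 7910 pairs at the ceiling in both lists, the median widths were 2617 bp (Wbp7-/-) and 2454 bp (Wbp7+/-), the median ratio was 1.05 (1.04 to 1.05), and the Wbp7-/- peak was the wider in 68.6% of pairs. The share was highest among narrower pairs: 74.1% of those with a mean width of 1 to under 2 kb were wider in Wbp7-/- cells, 61.4% of those of 3 to under 5 kb and 48.1% of the 462 pairs of 5 kb or more. The untreated pair gave a median ratio of 1.04 over 8169 ceiling pairs. The ratio of LPS to untreated widths was 0.975 in Wbp7+/- and 0.980 in Wbp7-/- cells. Those last comparisons share a library with the LPS pair, and how far library depth or fragment length moved the widths was not tested.

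**Figure D4:**
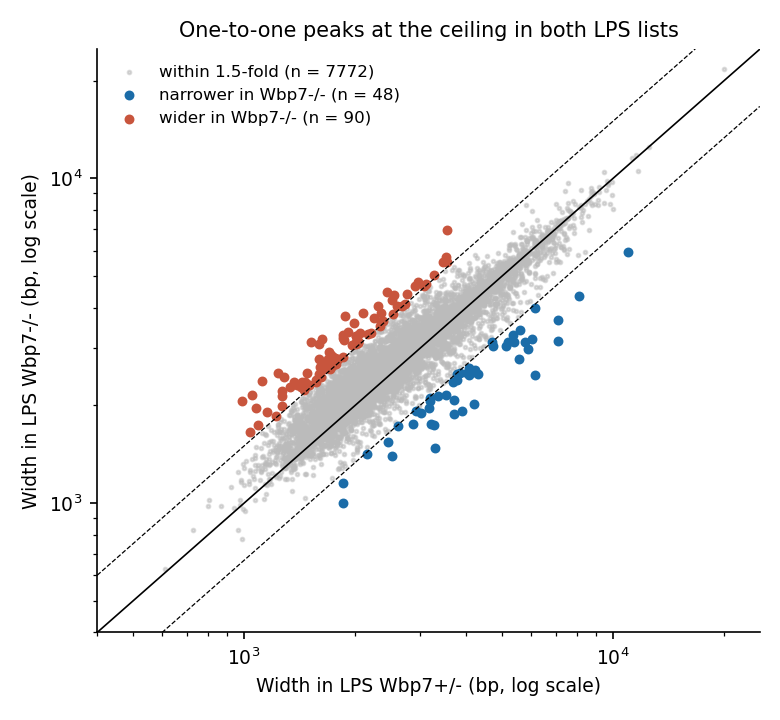
Peak width in LPS-treated Wbp7+/- cells (x axis, bp, log scale) and LPS-treated Wbp7-/- cells (y axis, bp, log scale) for the 7910 pairs at the ceiling in both lists, each point being 1 pair. The solid line marks equal widths and the dashed lines a 1.5-fold difference; 48 pairs are narrower (blue) and 90 wider (red) in Wbp7-/- cells by at least that factor.

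Among pairs at the ceiling in both lists, changes of width by 1.5-fold or more were rare, with 48 narrower (0.607%) and 90 wider (1.14%) in Wbp7-/- cells. With the untreated Wbp7+/- list in place of the LPS list there were 39 and 160. Over all 12353 one-to-one pairs, whatever their scores, such changes were more common and narrowing led, with 660 narrower (5.34%) and 497 wider (4.02%). The narrowed ceiling peaks were long, with medians of 3954 bp (Wbp7+/-) and 2479 bp (Wbp7-/-), whereas the widened ones had medians of 1758 and 2888 bp. In the untreated libraries, 37 of the 47 narrowed pairs with a peak in both genotypes were also narrower in Wbp7-/- cells (78.7%, against 32.1% of all 7893 ceiling pairs with such peaks), and 13 of them by 1.5-fold or more. Of the 90 widened pairs, 79 were wider in untreated Wbp7-/- cells as well (87.8%, against 67.7% of all), 30 of them by 1.5-fold or more. Across 7462 ceiling pairs with 1 peak in each untreated list, the log2 width ratios of the LPS and the untreated pair had a Pearson r of 0.436 and a Spearman rho of 0.429, as a description over sites that share their libraries. The change came from a single edge, which held at least 80% of it, in 23 of the 48 narrowed (47.9%) and 56 of the 90 widened pairs (62.2%). Among all 7910 ceiling pairs this was more common, at 5377 (68.0%).

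**Figure D5:**
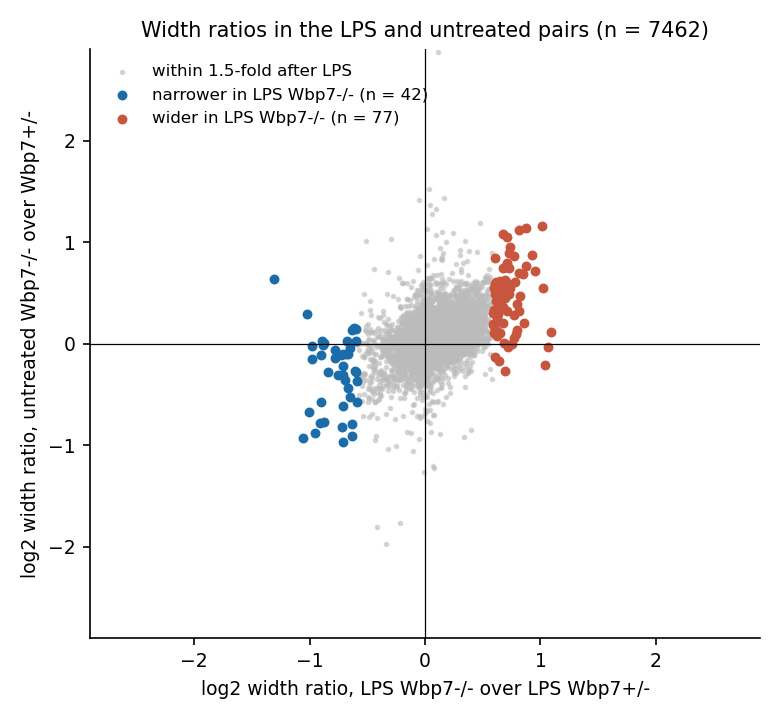
The log2 ratio of Wbp7-/- to Wbp7+/- peak width after LPS (x axis) and untreated (y axis) for 7462 ceiling pairs with 1 peak in each untreated list, each point being 1 pair. Pairs narrower (blue, n = 42) or wider (red, n = 77) by 1.5-fold after LPS lie mostly on the same side of 0 on the untreated axis.

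The pair that lost the most width was on chromosome 18, where a Wbp7+/- peak of 10997 bp from 4344350 to 4355346 faced a Wbp7-/- peak of 5920 bp. Untreated, the peaks there measured 5889 and 5979 bp, so the difference was seen after LPS alone, with 4453 bp of it at the edge with the lower coordinate. On chromosome 16, the peak from 87698163 to 87705246 measured 7084 bp against 3167 bp after LPS and 5044 bp, in 3 peaks, against 2916 bp untreated. The third, on chromosome 3 from 106346913 to 106354993, measured 8081 bp against 4336 bp, and 6354 bp against 4248 bp untreated. At the fourth, on chromosome 15 from 98502561 to 98508702, the direction turned, with 6142 bp against 2482 bp after LPS and 1202 bp against 1872 bp untreated. Of the 10 pairs that lost the most width, by 2442 to 5077 bp, 7 were narrower and 3 were wider in untreated Wbp7-/- cells.

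Of the 10 pairs that gained the most width in Wbp7-/- cells, by 1833 to 3410 bp, 8 were also wider in untreated Wbp7-/- cells, but several by little. The largest gain was on chromosome 5, from 3551 bp in Wbp7+/- (33360270 to 33363820) to 6961 bp in Wbp7-/- cells. The untreated widths there were 6825 bp, in 2 peaks, and 7014 bp, so the Wbp7+/- peak was short in the LPS library alone. The second, on chromosome 10 from 98723609 to 98729416, measured 5808 and 8258 bp after LPS and 8149 and 8390 bp untreated. On the X chromosome, the third, from 10293657 to 10297185, measured 3529 and 5750 bp after LPS and 5855 bp, in 2 peaks, and 5316 bp untreated. On chromosome 1, from 36527491 to 36530948, widths of 3458 and 5542 bp after LPS likewise stood against 5582 and 5584 bp untreated. In 2 pairs chosen from the 10 after their values were seen, the difference was there untreated too. On chromosome 9 from 44142693 to 44144566 the widths were 1874 and 3779 bp after LPS and 2047 and 4561 bp untreated, and on chromosome 10 from 4539737 to 4542174 they were 2438 and 4483 bp after LPS and 2744 and 4667 bp untreated.

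Some domains were single in 1 list and divided in the other. Of the Wbp7+/- peaks, 530 (3.06%) overlapped several Wbp7-/- peaks, and 542 Wbp7-/- peaks (3.59%) overlapped several Wbp7+/- peaks. The 530 met several peaks in untreated Wbp7-/- cells at 149 (28.1%) and in untreated Wbp7+/- cells, their own genotype, at 189 (35.7%). The 542 did so in untreated Wbp7+/- cells at 180 (33.2%) and in untreated Wbp7-/- cells at 95 (17.5%). The wider of the 2 Wbp7+/- peaks that met 4 was a domain of 13435 bp on chromosome 2 from 34808141 to 34821575, with gaps of up to 451 bp. It was also divided into 4 peaks in each untreated list. In the other direction, the widest of the 3 that met 4, a Wbp7-/- peak of 10829 bp on chromosome 15 from 103188233 to 103199061, had gaps of up to 1195 bp. Untreated, that place held 3 peaks in Wbp7-/- and 2 in Wbp7+/- cells.

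The losses were spread over the genome, with some local runs. By chromosome, the share of Wbp7+/- peaks without a counterpart went from 15.1% (12.9 to 17.6) on chromosome 8 and 16.5% on chromosome 7 to 22.9% (20.2 to 25.9) on chromosome 3. The X chromosome, at 20.3%, lay inside that range. It held 0 of the 82 ceiling losses among its 271 ceiling peaks, beside a share of 0.865% over all Wbp7+/- ceiling peaks. Chromosomes 7, 17 and 18 held 1 each, so the count of 0 does not set the X chromosome apart. For Wbp7-/- peaks the shares went from 5.05% on the X chromosome to 9.96% on chromosome 9. A Wbp7+/- peak without a counterpart had another such peak as its nearest neighbour in 26.5% of cases, against 16.9% for a matched peak, beside 19.7% of all peaks. In the class from 500 to under 3100, 17.6% of the peaks without a counterpart had a neighbouring peak of any kind within 5 kb, against 36.2% of matched peaks. The other classes went the same way, at 42.4% and 56.1% under 100 and 31.6% and 49.3% for 100 to under 500. At the ceiling the shares were 15.9% and 23.1%. Only with all scores pooled did the shares lie the other way, at 33.1% and 30.0%, and most peaks without a counterpart scored under 500.

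The longest unbroken run was on the X chromosome from 47919708 to 47965622, where 10 successive Wbp7+/- peaks of 334 to 717 bp had no Wbp7-/- LPS peak. Their scores were between 57.22 and 898.01, the untreated Wbp7+/- list had a peak at 9 of the 10 and the untreated Wbp7-/- list at 1. On chromosome 13, 6 successive peaks from 21250623 to 21264117 had none, 2 of them at the ceiling, and all 6 had an untreated Wbp7+/- and no untreated Wbp7-/- peak. A run of 6 on chromosome 11 from 119262669 to 119268706 differed, since neither untreated list had a peak at any of its 6 places. In Wbp7-/- cells the longest runs held 4 peaks. The runs named were chosen after their values were seen.

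In covered bases the genotypes differed less than in peak numbers. The Wbp7+/- list covered 34.9 Mb and the Wbp7-/- list 33.9 Mb, and 29.7 Mb was common to both. Of the Wbp7+/- bases, 8.49% (2.96 Mb) lay in peaks without a counterpart. Another 6.40% (2.24 Mb) lay in parts of matched peaks that the other list did not cover, at edges or in gaps between its peaks. Of the Wbp7-/- bases, 3.49% (1.18 Mb) lay in peaks without a counterpart and 8.82% (2.99 Mb) in such parts of matched peaks. Peaks absent from the other genotype therefore held most of the bases found in Wbp7+/- cells alone. Uncovered parts of matched peaks held most of those found in Wbp7-/- cells alone.

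Some peaks lay near the edge of the matching threshold. The smallest overlap that counted as a match was 1 bp, and 23 matched Wbp7+/- peaks overlapped by under 100 bp in all. Of the Wbp7+/- peaks without a counterpart, 88 had a Wbp7-/- peak within 100 bp, the nearest 5 bp away, 398 had one within 1 kb (11.7%) and 833 within 5 kb (24.4%). The Wbp7-/- peaks without a counterpart lay nearer, with 221 (18.3%) within 1 kb of a Wbp7+/- peak and 426 (35.3%) within 5 kb. A Wbp7+/- peak without a counterpart on chromosome 11, from 69834031 to 69835558, scored 828.62 and lay 9 bp from a Wbp7-/- LPS peak. It overlapped a ceiling peak in untreated Wbp7-/- cells, where the width was 3827 bp.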

How the data were processed

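H3K4me3 chromatin immunoprecipitation and sequencing was done in 4 libraries, 1 per group, after fixation with 1% formaldehyde. Reads were aligned with Bowtie to mm9, per the submitters' processing notes, and peaks were called with MACS in each library, per the file headers, which also name an input and 1 flow cell folder for all 4 files. Versions, thresholds and read numbers were not given in the sources used here. The authors deposited each peak with a start, an end and a score, used here to class and rank peaks within a list. The ceiling of 3100 is the most frequent score.

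Overlaps and gaps came from bedtools 2.31.1, tables from Python 3.11.15 with pandas 2.3.3 and numpy 2.4.6, intervals from scipy 1.17.1 and plots from matplotlib 3.10.9. Positions are mm9, counted from 1. Matching was tested on simulated data, a list with 200 peaks removed and 200 narrowed. Regions named were the 20 widest ceiling losses, the 20 highest-scoring Wbp7-/- peaks without a counterpart, the 10 largest width changes each way and the 5 most divided peaks each way, of which some are printed. The weakened ceiling peaks, the runs of neighbouring peaks and the examples taken from lower ranks were chosen after their values were seen. Members and lists were chosen with earlier results of these data known. Alternatives changed the overlap, a 1 kb tolerance or joining, the score minimum, the list length and the lists matched. The planned gene and cell type marker lists, among them GPI anchor synthesis, were not run, since the only gene table at hand was for GRCm38.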

Additional observations from a re-analysis of the deposited data

Results flagged for a closer look

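The genotype difference went in opposite directions with and without LPS at a few places. Of the 3412 Wbp7+/- LPS peaks without a Wbp7-/- LPS peak, 28 had an untreated peak in Wbp7-/- cells alone. Of the 1207 Wbp7-/- LPS peaks without a Wbp7+/- LPS peak, 54 had one in Wbp7+/- cells alone. The difference was not tested, since each group had 1 library. All were weak: the highest scores were 251.05 and 392.3, and 20 of the 28 and 47 of the 54 scored under 100. Among matched peaks, the same untreated pattern was seen at 123 of 13901 Wbp7+/- and 518 of 13879 Wbp7-/- peaks. The pattern was thus not particular to peaks without a counterpart.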

How the results depend on the processing

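Of 37 alternative values, 27 stayed close to the reported one and 10 did not. Close meant within 1.5 times for a count and inside its interval for the width ratio. A change of direction was scored for the width ratio alone, where 0 were found. Of the alternatives, 16 were planned and 21 were added after seeing the data. With lists of equal length, peaks without a counterpart numbered 1999 in Wbp7+/- and 1816 in Wbp7-/- cells, as this setting trims the Wbp7+/- list alone. Since most matched peaks met a single peak, equal lengths bring these counts close in any case. Matching against both lists of the other genotype left 759 Wbp7-/- peaks. Ceiling peaks alone, a part of each set, gave 82 and 1. The median width ratio was 1.05 for pairs at the ceiling and 1.02 with the untreated Wbp7+/- list in place of the LPS list. That list also gave 9 Wbp7-/- ceiling peaks without a counterpart, 33 with a score under 500 or none, and 160 ceiling pairs wider by 1.5-fold or more. No paired analysis was possible because each group had 1 library. Unknown depth limits every statement on absent peaks, scores and widths.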
